A study of Homo sapiens with 6 samples.

Results

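The genes described here are 49 genes of the extracellular matrix and of cell adhesion that are typical of the mesenchymal state of neuroblastoma, among 20007 protein-coding genes. They were taken as a named list, and their regions are all ATAC-seq peaks that overlap a gene body or the 10 kb before it. Merging the peaks of 6 lists gave 373067 regions, of which 990 belonged to these genes, and 101 of the 990 had a peak in every list, against 24147 of all regions. SK-N-AS is an established neuroblastoma cell line, and chromatin accessibility was measured in cells grown out of SK-N-AS xenografts in mice, 100000 cells per library. The naïve cells came from vehicle-treated mice. R1 and R2 came from tumors that had relapsed and were harvested while indisulam, a molecular glue that leads to the degradation of the splicing factor RBM39, was still being given. Each of these 3 cell types had 2 libraries, and the cells were not treated in culture. Only cells that attached to the dish were expanded, R1 and R2 are single tumor-derived cultures, and neither the origin of the libraries within a group (separate cultures or repeat preparations) nor the handling of reads from the mouse host is given in the sources used here, so p-values measure only the spread between these libraries, which may be technical.

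Neuroblastoma cells exist in an adrenergic state with sympathetic neuron features and in a mesenchymal state that resembles migrating neural crest cells and fibroblasts. In the mesenchymal state, cells secrete collagens, fibronectin and laminins, crosslink them with lysyl oxidases, remodel them with metalloproteases and attach to them through integrins, which are pairs of an alpha and a beta chain. ATAC-seq marks places where the Tn5 transposase can enter DNA, mostly promoters and enhancers, and it reports accessibility and not the amount of RNA.

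The libraries differed in depth, which bears on each count of peaks. Recovered from the deposited values, the background rate of a library ran from 0.85 and 0.899 (R2) over 2.29 and 1.35 (naïve) to 7.94 and 5.43 tags per window (R1), and the lists held from 67558 to 340558 peaks. Strength was therefore compared as a percentile: the rank of the strongest peak of a region, by its −log10 p, within its own library among the 24147 regions found in all 6 lists, so that 100 stands for the strongest and 0 for the weakest. In the shallow R2 libraries a single tag can move a percentile by many points. In the first R2 library, 11, 12 and 13 tags stood for percentiles 31.8, 40.2 and 47.5. Promoter peaks in all 6 lists were found for 8 of 10 adrenergic and 5 of 10 mesenchymal marker genes, and for 1 of 8 blood, 1 of 8 endothelial and 2 of 8 epithelial marker genes.

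Most of the 49 genes had an accessible promoter, and their share was near that of all genes when every peak was counted. A promoter peak, meaning one within 1000 bp of the start of the canonical transcript, was present for 37 and 34 of the 49 genes (naïve), 42 and 42 (R1) and 33 and 35 (R2). The shares were 75.5 and 69.4%, 85.7 and 85.7%, and 67.3 and 71.4%, beside 72.2 and 68.9%, 84.9 and 83.2%, and 62.9 and 63.8% of all protein-coding genes. Promoters were also counted among the strongest 20000 peaks of each list, which removes most of the difference in list length. Peaks tied at the cut were all kept. In the first R2 library peaks of 12 tags began at rank 18778 and those of 11 tags at rank 23540, so its set was larger. There were 23 and 21 naïve, 25 and 24 R1, and 25 and 21 R2 promoters of the list. These are 46.9 and 42.9%, 51.0 and 49%, and 51.0 and 42.9% of the list, beside 47.2 and 45.6%, 57.8 and 56.4%, and 48.5 and 45.9% of all genes, so that the list was below all genes in R1. Among the strongest 50000 peaks, 29 and 28 naïve, 39 and 38 R1, and 32 and 33 R2 promoters were found. These are 59.2 and 57.1%, 79.6 and 77.6%, and 65.3 and 67.3% of the list. The shares of all genes were 61.2 and 61.2%, 70.9 and 69.8%, and 59.9 and 60.8%. At this cut the list was above all genes in R1, opposite to the cut at 20000, and in R2, and slightly below them in naïve cells. The naïve and R2 differences amount to a few genes. Ties made these sets unequal too, as in the second naïve library, where peaks of 12 tags began at rank 46357 and those of 11 tags at rank 59777. All 6 libraries had a promoter peak for 27 of the 49 genes (55.1%, against 56.8% of all genes). None had one for 7 genes (14.3%, against 14.4%). The remaining 15 genes had a promoter peak in 1 to 5 libraries.

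**Figure D1:**
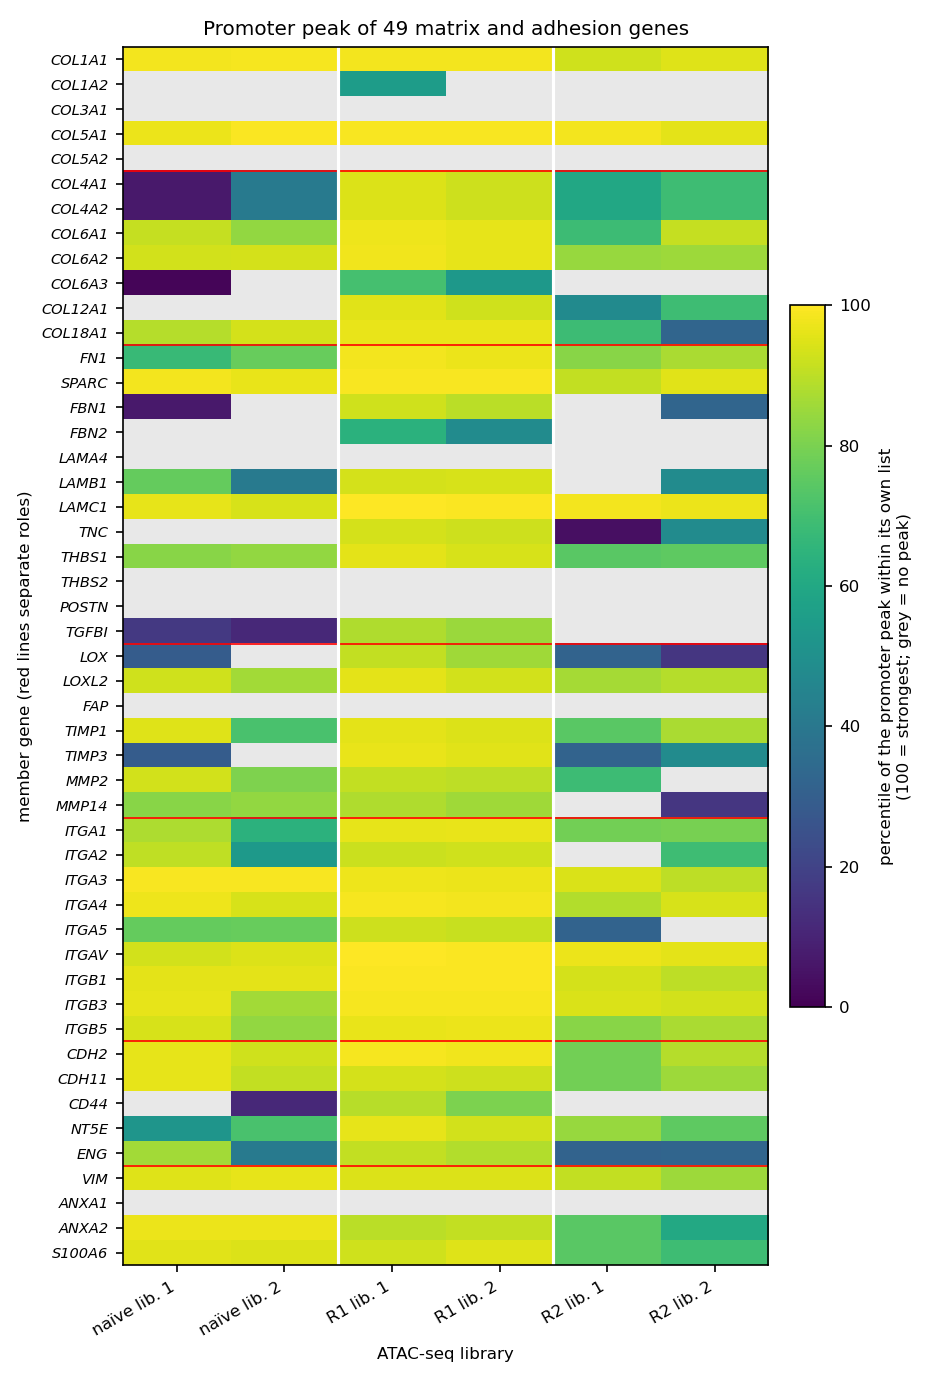
Strength of the promoter peak of each of the 49 genes (vertical axis, ordered by role) in the 6 libraries (horizontal axis), as the percentile within the whole peak list of that library; grey means no peak in the promoter region shown, which for COL1A2 is the one found in the first R1 library only. The 7 genes without a promoter peak are grey throughout, TNC and COL12A1 are grey only in the naïve columns, and because R1 lists are longer, colors are to be read down a column and not across.

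Collagens give the matrix its fibers and sheets. Of the fibrillar collagens, COL1A1 and COL5A1 had a promoter peak in all libraries, COL1A2 had one in both R1 libraries only, and COL3A1 and COL5A2 had none. The COL5A1 promoter was at percentiles 82.2 and 97.8 (naïve), 89.5 and 89.9 (R1) and 95.4 and 88.7 (R2), the highest mean of any promoter on the list (90.6). The COL1A1 promoter was at 90.3 and 94.4 (naïve), 73.6 and 79.6 (R1) and 81.7 and 86.1 (R2). Both naïve values lay above the 4 resistant ones, and in R1 the COL1A1 promoter was lower by limma (shift −15.7 ± 3.72 percentile points, SE, adjusted p = 0.0486, 2 libraries per group). This call was kept in 5 of 13 alternatives and was lost with the median of the surrounding 10 Mb taken off (−12.5 points, adjusted p = 0.151). Among the 5 is ranking by fold, which gives the same ranks as −log10 p and could not change the call. The COL1A1 gene also had the most accessible region of the list outside a promoter, upstream of its start (chr17:50206849-50212902), which ranked at 98.5 and 97.2 (naïve), 94.2 and 97.5 (R1) and 98.3 and 96.7 (R2) and did not pass the test in any comparison. A region upstream of SPARC and one in LOXL2 intron 4 came next, with means of 88.1 and 84.7.

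The basement membrane collagens COL4A1 and COL4A2 are transcribed away from each other from a single shared promoter on chromosome 13 (chr13:110306266-110309892). It was at percentiles 0.286 and 7.38 (naïve), 38.0 and 30.8 (R1) and 31.8 and 37.9 (R2), so that the 4 resistant values lay above both naïve ones. The shift was 30.6 ± 7.70 points in R1 (adjusted p = 0.0568) and 31.0 ± 7.70 in R2 (adjusted p = 0.0986) by limma, which did not pass the threshold of 0.05. The 142 other tested regions of the same 10 Mb had a median shift of 27.2 points in R1 and 32.3 in R2, as large as that of the promoter. Across the COL4A1 gene, 2 and 4 regions had a peak (naïve), against 116 and 87 (R1) and 5 and 7 (R2). Across COL4A2 the numbers were 8 and 11, 146 and 115, and 20 and 23. The R2 libraries, which are the shallowest, had more peaks in both genes than the naïve libraries, whereas over all regions the R2 lists were the shortest.

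COL6A1 and COL6A2, which form beaded filaments, and COL18A1 had promoter peaks in all libraries and did not pass the test in any comparison. The COL6A1 promoter was at 54.2 and 44.5 (naïve), 64.8 and 58.7 (R1) and 40.2 and 76.0 (R2). The COL18A1 promoter was at 44.8 and 71.5 (naïve), 54.8 and 60.8 (R1) and 40.2 and 11.7 (R2), where the R2 values stand for 12 and 9 tags. Its shift of R1 against R2 was the highest among the promoters (31.8 ± 14.1, limma adjusted p = 0.258), with naïve libraries nearly as far apart. COL6A2 shifted by −2.66 points in R1. COL6A3 had 10 tags in the first naïve library, 39 and 25 in R1, and no promoter peak elsewhere. COL12A1, a collagen that binds to the surface of collagen I fibrils, had a promoter peak in all 4 resistant libraries and in neither naïve library.

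TNC, which encodes the matrix glycoprotein tenascin C, was the other gene with this pattern. Thus 2 of the 49 genes (4.08%) had a promoter peak in all 4 resistant and in no naïve library, against 80 of all 20007 genes (0.4%), and 0 of 49 had the opposite pattern, against 5 of all genes (0.025%). The COL12A1 promoter (chr6:75204617-75206385) had 98 and 55 tags at its summit in R1 and 10 and 12 in R2, which is 12.3, 10.1, 11.8 and 13.3 times the background rate of these libraries. The TNC promoter (chr9:115117944-115119160) had 79 and 54 tags in R1 and 7 and 10 in R2, which is 9.95, 9.94, 8.24 and 11.1 times the rate. These ratios were alike in the deep R1 and the shallow R2 libraries. The weakest peak called in the naïve lists had 3.93 and 5.19 times the rate (9 and 7 tags), and scaled to the naïve depths the TNC peaks would have had from 18.8 to 25.5 tags in the first naïve library and from 11.1 to 15.0 in the second. Both ranges lie above the weakest naïve calls. The shift of the surrounding 10 Mb was not computed for the COL12A1 and TNC promoters, which have no naïve percentile. For both promoters, the bases upstream of any annotated exon are shown next, 5′ to 3′ on the strand of the gene (hg38). The letters GGGCGG or CCGCCC of a GC box are in capitals. The COL12A1 stretch lies 214 bases before the canonical start, and part of it is outside the accessible region, which ends at 75206385.

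TNC chr9:115118208-115118407, minus strand: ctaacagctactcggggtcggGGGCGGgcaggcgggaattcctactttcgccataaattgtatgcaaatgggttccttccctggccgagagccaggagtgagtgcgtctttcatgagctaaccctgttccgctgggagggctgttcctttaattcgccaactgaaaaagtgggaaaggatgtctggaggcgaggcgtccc
COL12A1 chr6:75206268-75206467, minus strand: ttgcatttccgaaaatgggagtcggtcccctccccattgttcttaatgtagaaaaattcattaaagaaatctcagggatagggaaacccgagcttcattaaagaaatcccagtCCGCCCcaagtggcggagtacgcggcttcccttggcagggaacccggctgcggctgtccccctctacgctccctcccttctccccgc

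Both stretches hold GC box letters, and their GC content was 56.0 and 54.5%. Neither stretch has the AP-1 letters TGANTCA. Among 38 of the 49 genes that matched the RefSeq promoter table (GRCh38.p14, 250 bases before to 50 after the start), 27 promoters held a GC box (71.1%), beside 59.2% of 15345 protein-coding genes.

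Of the other matrix glycoproteins, FN1 and LAMC1 had a promoter that was higher in R1. FN1 encodes fibronectin, the main ligand of several integrins. Its promoter (chr2:215435429-215436831) was at percentiles 12.7 and 32.7 (naïve), 78.3 and 67.4 (R1) and 59.1 and 66.3 (R2). Both naïve values were far below the 4 resistant ones. By limma, FN1 was higher in R1 (shift 50.2 ± 11.4 points, adjusted p = 0.0445), and the shift in R2 was 40.0 ± 11.4 (adjusted p = 0.124). LAMC1 encodes the laminin gamma 1 chain, present in most laminins. Its promoter (chr1:183022239-183024319) was at 77.1 and 74.0 (naïve), 97.2 and 94.2 (R1) and 95.4 and 91.9 (R2), and the naïve and resistant values do not overlap. LAMC1 was higher in resistant cells (19.1 ± 2.35, adjusted p = 0.0378) and in R1 (20.1 ± 2.71, adjusted p = 0.0201), with 18.1 ± 2.71 in R2 (adjusted p = 0.0691). The median of the other regions in the same 10 Mb was −0.597 points for LAMC1 and 4.19 for FN1 in R1, a small part of either shift. The stretches before these promoters have a higher GC content, 81.0% for FN1 and 77.0% for LAMC1, and are shown with GC box and CCAAT box letters in capitals.

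FN1 chr2:215436074-215436273, minus strand: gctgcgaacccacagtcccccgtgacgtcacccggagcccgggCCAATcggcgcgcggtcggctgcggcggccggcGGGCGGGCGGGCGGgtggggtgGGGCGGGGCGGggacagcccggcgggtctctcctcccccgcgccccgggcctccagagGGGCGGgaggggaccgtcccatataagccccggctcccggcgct
LAMC1 chr1:183023220-183023419, plus strand: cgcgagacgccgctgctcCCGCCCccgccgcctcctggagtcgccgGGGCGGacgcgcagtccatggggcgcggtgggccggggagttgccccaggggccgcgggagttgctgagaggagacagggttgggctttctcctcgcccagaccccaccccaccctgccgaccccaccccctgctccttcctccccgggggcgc

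SPARC, which encodes a collagen-binding glycoprotein, and THBS1, which encodes thrombospondin 1, had promoter peaks in all libraries without a called shift. SPARC was at 88.3 and 84.8, 87.8 and 87.7, and 77.2 and 87.4 (naïve, R1 and R2 in this order), and THBS1 averaged 36.9 ± 10.8 (SD, n = 2), 45 ± 7.0 and 46.4 ± 1.53. SPARC was thus among the strongest promoters of the list and THBS1 among the weakest of those found in all lists. The fibrillin genes FBN1 and FBN2, which encode the microfibrils on which elastin is laid down, and LAMB1 had promoter peaks in some lists. FBN1 had 11 tags in the first naïve library, 74 and 46 in R1, and 9 in the second R2 library. FBN2 had 36 and 24 tags in R1 and no other promoter peak, and at its R1 level from 3.75 to 4.07 tags would be reached in R2, below the 6 tags of the weakest called peak. In the first naïve library it would give 10.4 and 10.1 tags, above its weakest call of 9, and in the second 6.12 and 5.97, below its weakest call of 7. LAMB1 had 19 and 11 tags (naïve), 80 and 62 (R1), and 10 in the second R2 library. TGFBI had 12 and 9, and 57 and 39 tags in naïve and R1 cells, and no peak in R2. At the naïve and R1 levels it would have from 4.46 to 6.45 tags in the R2 libraries, at the limit of a call, so that a lower level in R2 was not detectable at this depth. LAMA4, THBS2 and POSTN had no promoter peak in any library.

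POSTN, which encodes periostin, and ANXA1, which encodes annexin A1, had no peak in any library over the whole gene or the 10 kb before it. These were the only members with 0 of the 990 regions. Their upstream stretches are shown for contrast with those above, with the letters of AP-1, of a TATA box (TATAAA) and of a CCAAT box in capitals. Their GC content was 31.5 and 40.5%.

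POSTN chr13:37598845-37599044, minus strand: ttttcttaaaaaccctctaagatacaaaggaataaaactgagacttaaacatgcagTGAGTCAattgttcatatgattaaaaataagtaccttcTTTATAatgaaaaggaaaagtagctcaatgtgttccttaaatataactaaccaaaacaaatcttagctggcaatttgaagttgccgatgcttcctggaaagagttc
ANXA1 chr9:73151665-73151864, plus strand: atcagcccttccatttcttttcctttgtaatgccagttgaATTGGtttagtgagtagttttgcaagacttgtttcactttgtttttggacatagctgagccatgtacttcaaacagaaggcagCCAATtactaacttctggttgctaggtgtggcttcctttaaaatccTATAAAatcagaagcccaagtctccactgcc

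The 4 genes without a promoter peak that matched the RefSeq table (LAMA4, THBS2, POSTN and ANXA1) had a median GC content of 45.2%, against 72.3% for 21 genes with a peak in all libraries and 63.0% for all genes. None of the 4 held a GC box and 3 held a TATA box, beside 16 and 2 of the 21. A match here describes the letters of the stretch and no binding.

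Among enzymes and inhibitors of the matrix, LOXL2, a lysyl oxidase, and TIMP1, an inhibitor of metalloproteases, had promoter peaks in all libraries and no called shift. LOXL2 was at 59.5 and 49.8 (naïve), 48.3 and 35.7 (R1) and 67.5 and 70.0 (R2), the lowest shift of R1 against R2 among the promoters (−26.7 ± 10.3, limma adjusted p = 0.205). TIMP1 shifted by −2.41 points in R1. LOX, the founding lysyl oxidase, had a peak in all but the second naïve library, with 13 tags in the other naïve library, 65 and 40 in R1, and 9 and 8 in R2. TIMP3 followed the same pattern with 13, 118 and 75, and 9 and 10 tags. Scaled to the second naïve library, the R1 and R2 values of TIMP3 correspond to 14.3 to 20.1 tags and those of the first naïve library to 7.68, near the 7 tags of the weakest call. The gelatinase MMP2 had 31 and 16, 65 and 47, and 12 promoter tags and no peak in the second R2 library. The membrane metalloprotease MMP14 had 21 and 17, and 57 and 40, and 8 tags, with no peak in the first R2 library. FAP, a protease of activated fibroblasts, had no promoter peak.

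A second MMP2 region lay in the part of the gene that only longer transcripts cover (chr16:55470176-55471199). It was at 37.5 and 58.5 (naïve), 0.367 and 0.598 (R1) and 12.8 and 29.5 (R2). The groups did not overlap, and the region was lower in R1 by limma (−47.5 ± 9.86, adjusted p = 0.0357). This call was kept in 6 of 14 alternatives, among them ranking by fold, which could not change it. In limma it was lost at −log10 q of at least 5 (adjusted p = 0.0512), on the first R2 list (0.0714) and without the variance trend (0.0582).

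Of the 9 integrin genes, 7 had a promoter peak in all libraries, ITGA2 lacked one in the first R2 library and ITGA5 in the second. ITGA2 had 27 and 12, 70 and 56, and 12 tags in the other libraries, and ITGA5 had 19 and 15, 73 and 51, and 9. For both genes the other libraries scale to between 7.47 and 11.4 tags where the peak was missing, a little above the weakest call of 6 tags. ITGAV encodes the alpha V chain that binds fibronectin and vitronectin. Its promoter (chr2:186589611-186591135) was at 61.9 and 76.3 (naïve), 96.9 and 95.0 (R1) and 92.2 and 88.7 (R2), without overlap. ITGAV was higher in resistant cells (24.1 ± 4.17, adjusted p = 0.0382) and in R1 (26.8 ± 4.82, adjusted p = 0.0265). The 19 other tested regions in the same 10 Mb shifted by a median of 25.7 points in R1, and with that median taken off, ITGAV did not pass the test (adjusted p = 0.8; 0.00775 to 0.8 over its 13 alternatives). ITGA4 lies in the same 10 Mb, so its surroundings are nearly the same regions, with a median shift of 26.8 points in R1. Its own promoter was at 84.1 and 74.0 (naïve) and 84.0 and 78.8 (R1).

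ITGA3 encodes the laminin-binding alpha 3 chain, and its promoter region went the other way. The region (chr17:50054747-50065321) was at 94.2 and 95.7 (naïve), 66.6 and 64.9 (R1) and 85.4 and 73.2 (R2). It was lower in resistant cells (−22.5 ± 4.40, adjusted p = 0.0455) and in R1 (−29.2 ± 5.08, adjusted p = 0.0252). The call in resistant cells was kept in 4 of 13 alternatives, and ranking by fold, which could not change it, is among the 4. With the median of its 10 Mb taken off the shift was −18.7 (adjusted p = 0.0837). This region is wide and joins several peaks, and its strongest point lies 6532 bases past the start, in intron 1. The peak at the start itself was at 75.7 and 88.4, 66.6 and 64.9, and 74.3 and 73.2. Its shift was −12.3 points in resistant cells and −16.3 in R1, and it was not tested separately. In R1 the region and the start peak have the same values, and in naïve cells they do not. The neighboring region upstream (chr17:50044842-50054008) was at 85.9 and 86.1 (naïve), 35 and 15.4 (R1) and 47.5 and 62.1 (R2). It was lower in R1 by limma (−60.8 ± 11.4, adjusted p = 0.028). ITGB1, the beta chain shared by most of these pairs, was at 75.7 and 82.0, 90.1 and 91.1, and 83.7 and 73.2, and did not pass the test. ITGB3, ITGB5 and ITGA1 did not pass it either, with R1 shifts of 19.8, 6.95 and 26.1 points. The promoter of ITGA1, the gene of the collagen-binding alpha 1 chain, was at 41.2 and 19.4 (naïve), 52.7 and 60.1 (R1) and 53.7 and 51.8 (R2). Both naïve values lay below the others. The start of another gene, PELO, lies in this region or within 1000 bp of it, so the peak cannot be assigned to ITGA1 alone. The surroundings shifted by medians of 16.8 points in R1 and 14.5 in R2.

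The surface proteins held the largest shift of the list. CD44 encodes the hyaluronan receptor. A region in its intron 17 (chr11:35223242-35223874) was at percentiles 1.87 and 19.4 (naïve), 93.2 and 91.3 (R1) and 77.2 and 73.2 (R2). In tags it had 13 and 13 (naïve), 255 and 159 (R1) and 20 and 19 (R2). It was among the weakest shared regions in naïve cells and among the strongest in R1. CD44 intron 17 was higher in resistant cells (73.1 ± 8.74, adjusted p = 0.0378) and in R1 (81.6 ± 10.1, adjusted p = 0.0201). In R2 the shift was 64.5 ± 10.1 (adjusted p = 0.0691), and the surrounding 10 Mb shifted by 14.0 points in R1 and 3.01 in R2. The CD44 promoter itself had 9 tags in the second naïve library, 60 and 35 in R1, and no peak in the others. The R1 values scale to between 5.48 and 6.79 tags in R2, about the weakest call of 6, and to 17.3 and 14.7 in the first naïve library, above its weakest call of 9. The summit of the CD44 intron region is shown on the plus strand of hg38, with CCAAT box letters in capitals. Within 50 bp of the summit these and E-box letters (CANNTG) were found, and none of the AP-1, TEAD (GGAATG), RUNX (TGTGGT), ETS (CCGGAAG) or GC box letters.

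CD44 chr11:35223426-35223576, plus strand: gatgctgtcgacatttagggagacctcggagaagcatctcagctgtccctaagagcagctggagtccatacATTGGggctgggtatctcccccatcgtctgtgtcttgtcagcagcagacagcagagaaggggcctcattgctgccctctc

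ENG encodes endoglin, a coreceptor of transforming growth factor beta. A region in its intron 2 (chr9:127836854-127839549) was at 78.5 and 82.0 (naïve), 5.62 and 15.4 (R1) and 67.5 and 45.3 (R2). It was lower in R1 (−69.7 ± 11.5, adjusted p = 0.0238), the largest fall of the list, with both R2 values between the other groups. COL18A1 had a region in its intron 2 at 78.5 and 82.0, 48.9 and 53.9, and 77.2 and 80.7, which was lower in R1 (−28.8 ± 6.69, adjusted p = 0.0466) and in R2 overlapped the naïve values. The summit of the ENG region holds AP-1 letters, which are in capitals in the plus-strand sequence.

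ENG chr9:127838454-127838604, plus strand: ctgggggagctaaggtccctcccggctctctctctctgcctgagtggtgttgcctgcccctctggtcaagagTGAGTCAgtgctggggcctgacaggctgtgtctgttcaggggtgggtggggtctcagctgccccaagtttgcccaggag

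AP-1 letters within 50 bp of the summit were found in 4 of the 6 regions outside promoters that were lower in R1 (among them ITGA3 upstream, ENG intron 2 and ANXA2 intron 1) and not in the 1 that was higher. Over the whole series, 33.8% of 884 such lower regions and 1.91% of 314 such higher regions held them, beside 7.82% of 14099 tested regions outside promoters. Of the 74 tested regions of these genes outside promoters, 11 held them (14.9%). None of their 27 tested promoter regions did, against 1.14% of all tested promoter regions. The promoters of these genes also held CCAAT box letters at the summit in 0 of 27, against 21.3%, and ETS letters in 0 of 27, against 8.11%.

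The cadherins, NT5E and ENG had promoter peaks in all libraries without a called shift. CDH2, N-cadherin, was at 77.1 and 68.8, 79.6 and 76.1, and 53.7 and 70.0 (naïve, R1 and R2). CDH11, the cadherin of mesenchymal cells, was at 77.1 and 62.3, 31.9 and 30.8, and 53.7 and 62.1, with a shift of −38.3 ± 10.5 in R1 (adjusted p = 0.0706). The promoter with the lowest mean was that of ENG (17.4), at 37.5 and 7.38, 18.3 and 16.8, and 12.8 and 11.7. NT5E, the ectonucleotidase CD73, was at 6.1 and 26.1, 51.6 and 35.7, and 63.6 and 45.3. All 4 resistant values of NT5E lay above the naïve ones, and its 24 neighboring regions shifted by medians of 37.1 points in R1 and 24.1 in R2.

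VIM, ANXA2 and S100A6, an intermediate filament protein, a membrane-binding annexin and a calcium-binding partner of annexins, had a lower promoter percentile in both R1 libraries than in both naïve ones. The ANXA2 promoter (chr15:60396982-60398293) was at 81.0 and 86.1 (naïve), 14.5 and 24.2 (R1) and 47.5 and 29.5 (R2), with no overlap between naïve and resistant libraries. ANXA2 was lower in resistant cells (−54.7 ± 9.53, adjusted p = 0.0384) and in R1 (−64.2 ± 11, adjusted p = 0.0245), with −45.1 ± 11 in R2 (adjusted p = 0.0961), while its surroundings shifted by 6.13 points in R1. A region in ANXA2 intron 1 (chr15:60392992-60393471), which lies in an exon of other ANXA2 transcripts, was at 70.6 and 58.5, 2.19 and 0.0435, and 40.2 and 57.3, and was lower in R1 (−63.4 ± 10.3, adjusted p = 0.023). The S100A6 promoter region, whose strongest point lies past the end of this short gene, was at 74.0 and 76.3, 26.9 and 46.9, and 47.5 and 37.9, with a shift of −38.2 ± 11.2 in R1 (adjusted p = 0.0834). VIM, a common protein marker of mesenchymal cells, was at 72.4 and 83.5, 40.0 and 46.0, and 77.2 and 62.1, with −34.9 ± 9.62 (adjusted p = 0.071). The promoters of these 3 genes had a median shift of −35.3 points in resistant cells, and of the 3 only ANXA2 passed the test.

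Counted over the whole list, 5 of the 101 tested regions were called in resistant against naïve cells. The 3 higher ones (2.97%, against 1.85% of all 24147 regions) were the LAMC1 and ITGAV promoters and CD44 intron 17. The 2 lower ones (1.98%, against 1.59%) were the ANXA2 promoter and the wide promoter region of ITGA3. In R1 against naïve cells 13 were called, 4 higher (3.96%, against 3.32%) and 9 lower (8.91%, against 4.32%), the lower ones including a region at the 3′ side of COL1A1 (chr17:50176627-50185160). That region was at 95.5 and 96.7, 66.6 and 71.5, and 79.6 and 93.4. The 9 lower ones are not 9 separate places, because ANXA2, ITGA3 and COL1A1 each gave a pair of nearby regions. The ITGA3 and COL1A1 pairs lie close together on chromosome 17, from 50044842 to 50206622. Outside promoters, 1 of 74 regions of the list was higher and 6 were lower (8.11%), beside 314 and 884 of 14099 such regions of the series. In R2 against naïve cells limma called 0 of 101 in either direction (0 and 0% of all regions). At an unadjusted p under 0.05 there were 20 (19.8%, against 19.9% of all regions). In R1 against R2 it called 0, against 0.464% of all regions higher and 2.22% lower, with 17 at an unadjusted p under 0.05 (16.8%, against 20.6%). The naïve libraries are shared by the comparisons and the R1 and R2 contrasts are not independent, so a call in R1 that is missing in R2 does not show that the cell types differ: no region of the list passed the test of R1 against R2, with a lowest adjusted p of 0.0601.

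**Figure D2:**
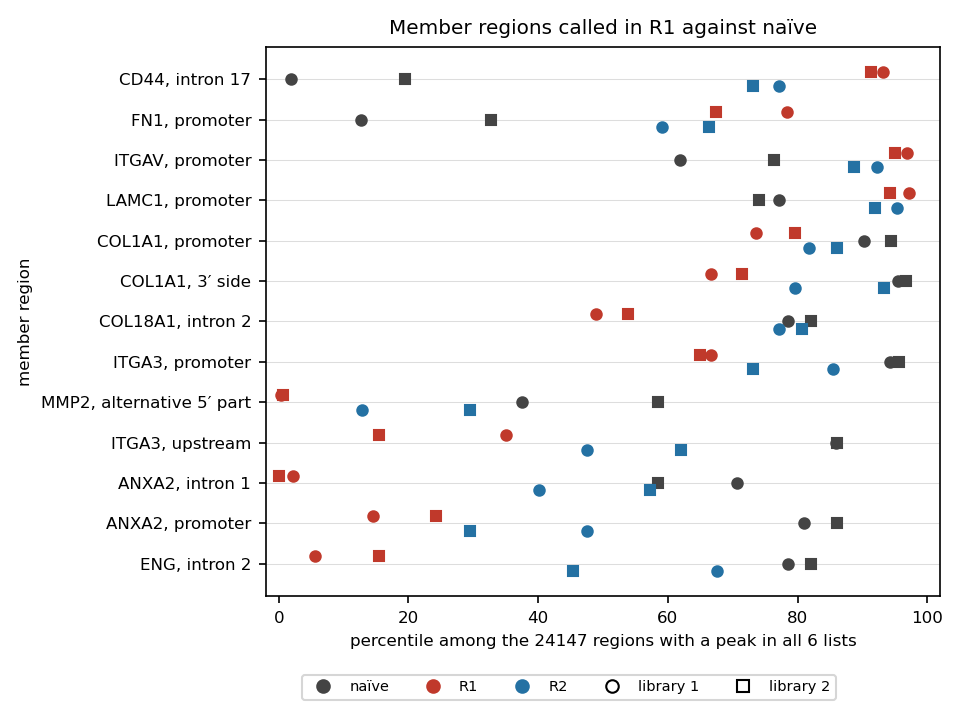
Percentile of the 13 called regions (vertical axis) in each library (horizontal axis, 100 is the strongest of the 24147 regions found in all lists); color gives the cell type and shape the library. CD44 intron 17 runs from 1.87 and 19.4 in naïve cells to 93.2 and 91.3 in R1, ENG intron 2 from 78.5 and 82.0 to 5.62 and 15.4, and the R2 points lie mostly between naïve and R1.

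The median promoter of the list shifted by little. Over its 26 distinct promoter regions, with the stronger one of THBS1, the median shift was 0.826 points in resistant cells, 1.75 in R1 and 0.851 in R2, beside 1.28, 3.9 and −0.368 for 10048 promoter regions of all genes. Regions outside promoters had medians of −5.32, −8.66 and −3.87 points, beside −1.96, −3.55 and −0.643 for the 14099 such regions of the series. In R1 against R2 the medians were −0.167 for promoters of the list and 4.56 for all promoter regions.

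Calls rested on few libraries. Leaving out either R1 library ended all 18 calls (5 in resistant and 13 in R1 against naïve cells); R1 then had a single library, which was assumed to vary like the other groups. The shifts themselves were near those with both libraries, for example 80.7 and 82.6 points for CD44 intron 17, 18.7 and 21.6 for LAMC1 and −59.4 and −69.1 for the ANXA2 promoter in R1. Without the first naïve library 2 of the 18 were kept, without the second 6, and without either R2 library 17. With the libraries paired by their number as a replicate block, 0 regions were called in resistant and 11 in R1 against naïve cells.

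Some shifts were shared by their surroundings. In the plot of shifts against surroundings, COL4A1 lies by the line of equal shift in R1 and in R2 (31.0 points against 32.3). ITGAV lies by it in R1 but not in R2, where its shift was 21.3 points against 6.89, and NT5E shifted by 27.6 against 37.1 in R1 and by 38.4 against 24.1 in R2, whereas CD44, FN1, LAMC1 and ANXA2 lie away from it. With the median of the 10 Mb taken off, 3 of the 101 regions were called in resistant cells (2 higher and 1 lower, against 0.857 and 1.22% of all regions), 10 in R1 (3 higher and 7 lower, against 1.69 and 3.63%) and 2 in R2 (2 higher and 0 lower, against 0.385 and 0.273%). The calls of the ITGAV and COL1A1 promoters, of COL18A1 intron 2 and, in resistant cells only, of the ITGA3 promoter region were lost. The 2 in R2 were CD44 intron 17 and the LAMC1 promoter, both higher. Changes in the copy number of these stretches and changes in their accessibility cannot be told apart in these lists.

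**Figure D3:**
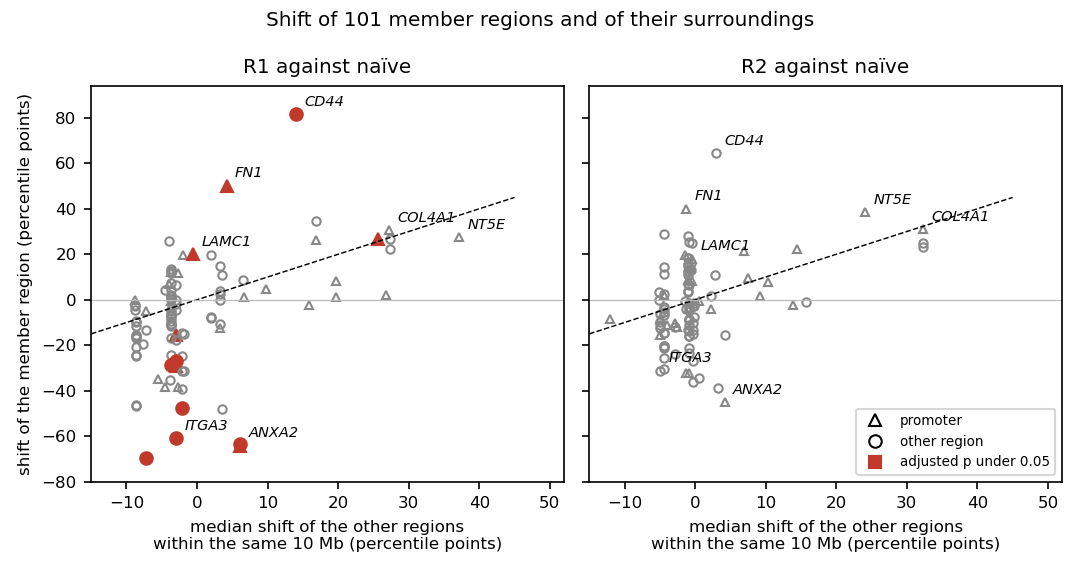
Shift of each of the 101 regions in percentile points (vertical axis) against the median shift of the other tested regions in the same 10 Mb (horizontal axis), for R1 (left) and R2 (right) against naïve cells; filled red symbols passed the test and the dashed line marks equal shifts. COL4A1 (30.6 in R1 against 27.2 around it) lies by the line, and CD44 (81.6 against 14.0) and ANXA2 (−64.2 against 6.13) lie far from it.

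Regions with a peak in 1 group only, naïve or resistant, were few. Of the 990 regions, 8 (0.808%, against 0.245% of all regions) had a peak in all 4 resistant and no naïve library. They were the COL12A1 and TNC promoters, 1 region in COL4A1 and 5 in COL4A2. Thus 6 of the 8 lie on chromosome 13 within the shifted surroundings described above, and for the COL12A1 and TNC promoters the shift of the surroundings was not computed. The strongest by rank were COL4A1 intron 2 (chr13:110221950-110222541), with 106 and 66 tags in R1 and 16 and 10 in R2, COL4A2 intron 29 (chr13:110473587-110476776), with 81 and 56, and 11 and 11 tags, and the COL12A1 promoter. The opposite pattern, a peak in both naïve and no resistant library, was found for 3 regions (0.303%, against 0.174%), in introns of THBS2, ITGA2 and ANXA2. ANXA2 intron 3 (chr15:60370467-60370847) was the strongest of these, with 23 and 11 tags. ITGA2 had 16 and 7 tags and THBS2 12 and 10. These naïve peaks were absent from the R1 lists, which are the deepest and would have called peaks from 2.27 and 2.58 times the background rate on, while the naïve peaks stood at 5.19 to 10.0 times theirs.

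**Figure D4:**
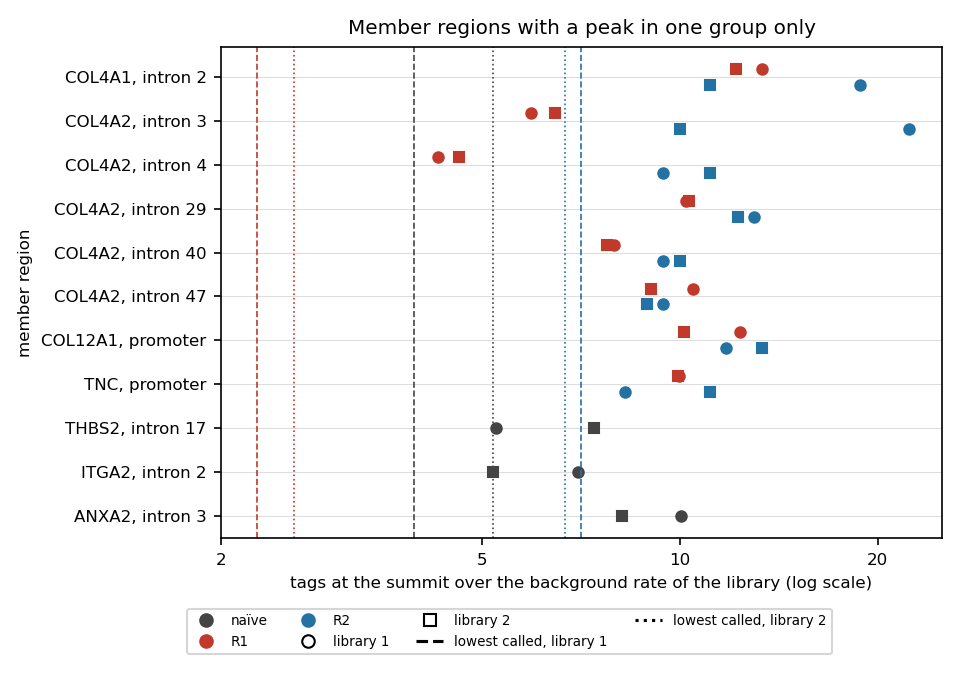
Tags at the summit over the background rate of the library (horizontal axis, log scale) for the 11 regions with a peak in one group only (vertical axis); color gives the cell type, shape the library, and dashed and dotted lines the weakest called peak of library 1 and 2. The TNC and COL12A1 promoters sit at 8.24 to 13.3 in both R1 and R2, to the right of the naïve limits of 3.93 and 5.19.

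As a wider background, 146 other genes of the matrix and of adhesion had 303 tested regions. Of these, 3 were higher and 4 lower in resistant against naïve cells by limma (0.99 and 1.32%, against 1.85 and 1.59% of all regions). In R1 there were 3 and 19 (0.99 and 6.27%, against 3.32 and 4.32%), and in R2 0 and 0. In R1 against R2 there were 0 and 7 (0 and 2.31%, against 0.464 and 2.22%). The share lower in R1 was 6.27%, and it was 8.91% for the 49 genes and 4.32% for all regions.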

How the data were processed

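The 6 ATAC-seq libraries were analysed from peak lists in narrowPeak form. The authors aligned reads with BWA 0.7.12-r1039, marked duplicates with Picard 1.65, filtered with SAMtools 1.3.1, shifted read ends for the Tn5 cut and called peaks per library with MACS2 2.2.7.1, without pooling. The study's methods name hg19 and the submitters' notes name hg19 and hg38; the coordinates fit hg38, which was used with GENCODE release 44. The deposited values of a peak are a fold enrichment (a ratio over background) and −log10 p-values and q-values, as the authors' caller gave them.

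From these, tags and background rates were recovered. Peaks sharing at least 1 base were merged, and regions with a peak in all 6 lists (24147) were ranked within each library by −log10 p. Because p depends on depth, only these percentiles, from 0 to 100, were compared. Shifts were tested with limma 3.58.1 (R 4.3.3) with a variance trend, 3 groups sharing 1 spread with 3 residual degrees of freedom, two-sided, Benjamini-Hochberg over all 24147 regions, called at an adjusted p under 0.05. With 2 libraries per group no exact test can reach 0.05. Scripts (Python 3.11.15) were tested on simulated data. BWA, MACS2 and version numbers follow the submitters' processing notes.

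The members, lists, motifs and the rule for named genes were chosen with earlier results of these data known. The rule names the promoters with the 5 highest and lowest mean percentiles, those missing in some library, called regions or else the 3 largest shifts, and the 3 strongest regions outside promoters or in 1 group only. Alternatives were ranking by fold or normal score, q at −log10 of at least 5, regions of the first R2 list, the 10 Mb median taken off, no trend, other reach, a replicate block and leaving out each library. Fold and −log10 p both follow from the tags and the background rate of a library and gave the same ranks. Ranking by fold therefore could not change a call, although it is included in the counts of alternatives. The sequence of 1 region is not reported here.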

Additional observations from a re-analysis of the deposited data

How the results depend on the processing

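The counts of called regions depended on the processing and on single libraries. In resistant against naïve cells, 5 regions were called; the count was 12 with normal scores, 0 when regions were taken from the first R2 list, 2 when a fraction of 0.5 had in addition to be shared (which left 10 regions of the list to test and 3 promoters, in place of 101 and 26), 3 with the 10 Mb median taken off, and 0 to 8 when each library was left out. It was 0 without the first or the second R1 library, 1 without the first naïve library, 2 without the second and 8 without the first R2 library. In R1 against naïve cells, 13 were called; the count was 8 with −log10 q of at least 5, 3 (of 10) with the fraction of 0.5, and 0 to 19 with libraries left out (0 without either R1 library, 1 and 4 without the first and second naïve library). In R2 against naïve cells, 0 became 1 with normal scores, 7 on the first R2 list and 2 with the 10 Mb median taken off. In R1 against R2, 0 became 4 with normal scores and 17 on the first R2 list. The cause was not tested.

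The numbers of the libraries do not pair them: deviations from group means of same-numbered libraries correlated at 0.0309, −0.0223 and −0.000842 over regions. With the replicate block, the count in resistant against naïve cells fell from 5 to 0, was 11 in R1 and 0 in R2 and in R1 against R2.

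The median promoter shift in resistant cells, 0.826, was −1.99 with the fraction of 0.5 (3 promoters), −1.85 with the 10 Mb median taken off, and from −2.6 (without the second naïve library) to 3.8 (without the first). In R1, 1.75 became −2.99 on the first R2 list, −1.6 with the 10 Mb median taken off, −1.35 at any annotated start, and 1.45 to 7.97 (without the first naïve library) with libraries left out. In R2, 0.851 became 5.52, −2.78 and −1.43 on the first R2 list, with the fraction of 0.5 and with the 10 Mb median taken off. In R1 against R2, −0.167 became −9.85 and 6.93 on the first R2 list and with the fraction of 0.5. Apart from the fraction of 0.5, which rests on 3 promoters, the sign turned in each comparison with the 10 Mb median taken off (to 0.252 in R1 against R2). It also turned in R1 on the first R2 list, in R1 and R2 (−1.3) at any annotated start, and in R2 with normal scores (−0.189). In R1 against R2 it turned at the peak at the start itself (0.138). Leaving out single libraries turned it in each comparison but R1 against naïve cells. Regions found in resistant libraries only numbered 8 to 22 with libraries left out (17 without the first naïve, 22 and 17 without the first and second R2 library), and those in naïve libraries only 3 to 21 (21 without the second naïve library, 5 without the first naïve or either R1 library). In the top 50000 peaks, promoter counts were 29 and 28 (naïve), 39 and 38 (R1) and 32 and 33 (R2). The leave-one-out counts of regions in 1 group and the peak at the start itself were chosen after seeing the data.

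Of the 18 calls of named regions, 16 were kept with normal scores, 13 with the 10 Mb median taken off and 9 without the variance trend. Ranking by fold kept all 18 by construction, because it gives the same ranks as −log10 p, so it does not test them. Depth limits the R2 lists most, in which 6 tags were needed for a call.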

Other observations

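Among the 146 other matrix and adhesion genes, the focal adhesion and adhesion molecule group (28 genes, 77 tested regions) had 7 regions lower and 0 higher in R1 against naïve cells by limma, and 4 lower in R1 against R2. Other matrix enzymes and inhibitors (34 genes, 72 regions) had 2 higher and 6 lower in R1. Other glycoproteins and proteoglycans (44 genes, 88 regions) had 1 higher and 3 lower, other integrins (17 genes, 29 regions) 0 and 2, and other collagens (23 genes, 37 regions) 0 and 1. These are 9.09, 8.33, 3.41, 6.9 and 2.7% lower, beside 4.32% of all tested regions, of which 3.32% were higher. The 4 regions of the first group that were lower in R1 against R2 are 5.19%, beside 2.22% of all tested regions. No promoter peak was found in any library for DCN, which encodes decorin, for the secreted metalloproteases MMP1, MMP3 and MMP13, or for the integrin chain ITGB6.

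Among the 10 mesenchymal marker genes, 2 of 14 tested regions were higher in R1 (14.3%, against 3.32% of all tested regions) and 0 lower (against 4.32%). With the 10 Mb median taken off, 1 was called higher. RUNX2 had no promoter peak in any library. Among the 10 adrenergic marker genes, 0 of 17 tested regions were called in R1. In resistant against naïve cells 1 was higher (5.88%, against 1.85% of all tested regions), and 0 were with the 10 Mb median taken off.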
